A study of Mus musculus domesticus and Mus musculus domesticus x Mus musculus castaneus and Mus musculus castaneus with 10 samples.

Results

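The reprogramming factors are 4 transcription factor genes, Pou5f1 (which encodes OCT4), Sox2, Klf4 and Myc, whose forced expression turns fibroblasts into induced pluripotent stem cells. They were chosen by symbol, and all 4 were matched to Ensembl identifiers among the 26808 of the count table. RNA-seq counts are described here for CAST homozygous stem cells, a CAST/EiJ induced pluripotent line made from mouse embryonic fibroblasts with retroviral pMXs vectors that carried Oct4, Sox2 and Klf4. Myc was not among the factors named for these vectors. The cells were grown in medium with serum and LIF on irradiated fibroblast feeder cells, and feeders were depleted before RNA was extracted. There were 2 libraries, replicate 1 and replicate 2, with 14460393 and 13728098 counts on genes. Other stem cell samples, labelled 129S6/SvEv and 129CAS, were not analysed here. With 1 group of 2 libraries no test between conditions could be run, so the values below are levels with the spread between the libraries. The labels give each library a batch entry of its own, so batch and replicate cannot be told apart, and nothing in the labels says that the libraries came from separate lines.

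OCT4 and SOX2 bind DNA side by side at enhancers of pluripotency genes, their own included, and a stem cell leaves the pluripotent state when either is lost. KLF4 is a zinc finger factor that joins them at many of these sites, is induced by LIF through STAT3, and shares its role in self-renewal with KLF2 and KLF5. MYC pairs with MAX to drive genes for growth, ribosome synthesis and division, speeds reprogramming without being required for it, and has a short-lived transcript in cells generally.

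A count on Pou5f1, Sox2 or Klf4 can come from the chromosomal gene or from a vector, because a vector transcript carries the coding sequence. The table gives 1 count per gene with no position along the transcript, so the part of vector transcripts in these counts was not tested. In the longest annotated coding model of GENCODE M21 (GRCm38), coding bases made up 77.5% of Pou5f1 (1056 of 1362 bases), 46.5% of Sox2 (957 of 2057), 47.8% of Klf4 (1449 of 3029) and 56.3% of Myc (1317 of 2338). The remainder are UTR bases and the stop codon. Pou5f1 (ENSMUSG00000024406) lies on the plus strand at chr17:35506018-35510772 in 5 exons, and Sox2 (ENSMUSG00000074637) on the plus strand at chr3:34650405-34652461 in a single exon. Klf4 (ENSMUSG00000003032) lies on the minus strand at chr4:55527143-55532466 in 5 exons, and Myc (ENSMUSG00000022346) on the plus strand at chr15:61985391-61990374 in 3 exons.

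The bases that encode the DNA-binding fingers of KLF4, KLF2 and KLF5 are shown because these 3 factors share a role in self-renewal. Whether likeness in sequence bears on their counts was not tested. The sequences run 5′ to 3′ on the coding strand of the GENCODE M21 transcripts, from the first cysteine codon of the first finger to the last histidine codon of the last, with the codons of the zinc-binding cysteines and histidines in capitals.
Klf4: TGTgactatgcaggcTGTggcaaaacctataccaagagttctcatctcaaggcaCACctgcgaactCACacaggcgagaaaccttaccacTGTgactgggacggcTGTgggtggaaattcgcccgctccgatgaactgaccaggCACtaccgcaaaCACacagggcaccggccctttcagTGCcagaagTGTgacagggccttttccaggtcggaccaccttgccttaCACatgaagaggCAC
Klf2: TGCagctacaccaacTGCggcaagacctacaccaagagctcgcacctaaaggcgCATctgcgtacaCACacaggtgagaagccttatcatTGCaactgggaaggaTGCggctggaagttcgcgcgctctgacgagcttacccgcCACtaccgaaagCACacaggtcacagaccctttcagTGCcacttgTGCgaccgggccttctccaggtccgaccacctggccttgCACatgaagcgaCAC
Klf5: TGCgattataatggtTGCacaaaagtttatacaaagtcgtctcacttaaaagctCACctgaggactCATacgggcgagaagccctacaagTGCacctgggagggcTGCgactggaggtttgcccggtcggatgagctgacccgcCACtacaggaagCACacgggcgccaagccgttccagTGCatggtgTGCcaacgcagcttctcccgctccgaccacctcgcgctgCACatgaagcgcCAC

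Over these 243 bases Klf4 had the same base as Klf2 at 190 (78.2%) and as Klf5 at 166 (68.3%), while 74 and 67 of the 81 encoded residues were the same. The longest run of bases shared by the coding sequences was 14 between Klf4 and Klf2 and 11 between Klf4 and Klf5, both below 75 bases. Of the 75-base stretches (a length set here) in the transcript models of Sox2, Klf4 and Myc, 0 occurred in a transcript of another gene. In Pou5f1 147 of 1288 did (11.4%), all of them in Gm19553, an antisense gene whose exons overlap those of Pou5f1 over 317 bases. The strand setting of the counting is not given in the sources used here, so reads of this overlap could not be assigned to either strand, and Gm19553 itself was not analysed here. Sox2 lies inside Sox2ot, a long noncoding gene of the same strand, and the exons of the 2 genes share 0 bases.

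In counts, the 4 factors were present at very different levels, with Pou5f1 highest and Myc lowest in each library. Levels are given in CPM, the counts of a gene for each 1000000 that its library had on genes, and between genes as CPM per kilobase of the longest transcript. Pou5f1 had 7910 counts in replicate 1 and 10033 in replicate 2, which is 547 CPM (95% exact Clopper-Pearson interval 535 to 559, here and below for counting error only) and 731 CPM (717 to 745), or 639 ± 130 CPM (SD, n = 2). Sox2 had 7549 and 5194 counts, which is 522 CPM (510 to 534) and 378 CPM (368 to 389), or 450.2 ± 102 CPM (SD, n = 2). Klf4 had 4813 and 2018 counts, which is 333 CPM (324 to 342) and 147 CPM (141 to 154), or 239.9 ± 131 CPM (SD, n = 2). Pou5f1 was thus the higher in replicate 2, and Sox2 and Klf4 were the higher in replicate 1. Myc had 422 and 44 counts, which is 29.2 CPM (26.5 to 32.1) and 3.21 CPM (2.33 to 4.30), or 16.2 ± 18.4 CPM (SD, n = 2), an SD larger than the mean. These intervals leave out the spread between cultures and batches, for which the 2 libraries give only the SD. The SD was 20.3% of the mean for Pou5f1, 22.6% for Sox2, 54.8% for Klf4 and 113% for Myc.

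**Figure D1:**
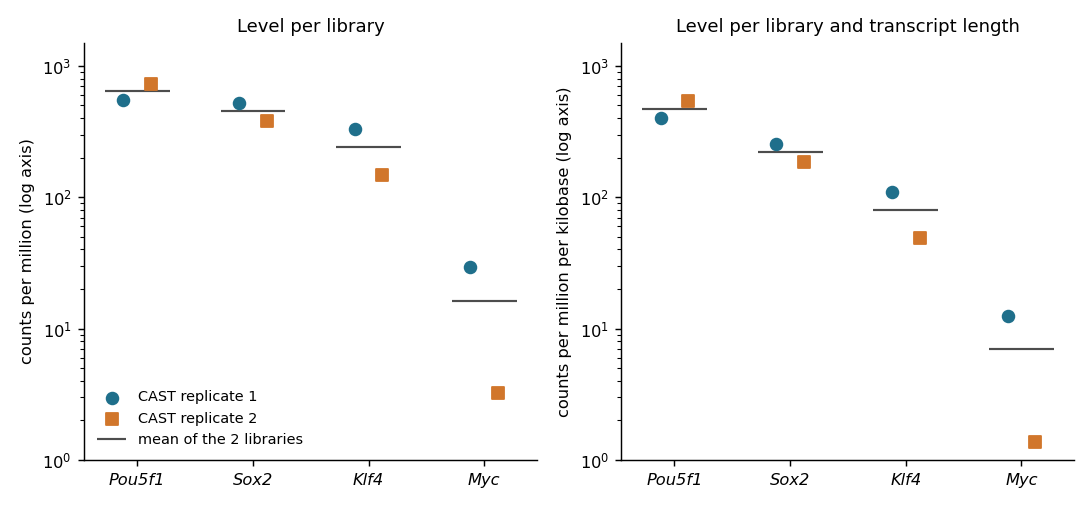
Levels of the 4 reprogramming factors in the 2 CAST libraries, in CPM (left) and CPM per kilobase of the longest transcript (right), both on a log axis, with a point for each library and a line at their mean. Pou5f1 is highest and Myc lowest in each library, and the points of Klf4 (333 and 147 CPM) and Myc (29.2 and 3.21 CPM) lie farthest apart.

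Per kilobase the order was Pou5f1, Sox2, Klf4, Myc in both libraries. Pou5f1 had 402 and 537 CPM per kilobase in replicates 1 and 2, Sox2 254 and 184, Klf4 110 and 48.5, and Myc 12.5 and 1.37, so that the ranges of neighbours in this order did not overlap. Among the 13824 genes whose counts in both libraries summed to 10 or more (the genes compared by ratios below), Pou5f1 ranked 93 and 79 by this level, and Sox2 172 and 293. Klf4 ranked 543 and 1585. Myc ranked 5154 in replicate 1 and 10236 in replicate 2, that is, within the upper 37.3% of genes in the first library and the upper 74.0% in the second. The order of Pou5f1 and Sox2 depended on the length used. With the union of all annotated exons, which is 2248 bases for Pou5f1, the level of Pou5f1 was 243 CPM per kilobase in replicate 1, below the 254 of Sox2, and 325 in replicate 2, above the 184 of Sox2. These neighbours were therefore not separated beyond their spread under that length, while the places of Klf4 and Myc did not depend on it.

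The ratio of one factor to another within a library does not depend on how libraries are scaled. Per kilobase of the longest transcript, Pou5f1 was 1.58 times Sox2 in replicate 1 and 2.92 times in replicate 2. Sox2 was 2.31 and 3.79 times Klf4, and Klf4 was 8.80 and 35.4 times Myc. With the exon union as length, Pou5f1 was 0.959 and 1.77 times Sox2. The libraries thus differed in the balance of the factors as well as in each level, with all 3 ratios larger in replicate 2. Together the 4 genes took 0.143% of all counts of replicate 1 and 0.126% of those of replicate 2.

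Between the libraries, Klf4 and Myc were each at least 2-fold higher in replicate 1, and Pou5f1 and Sox2 were less than 2-fold apart. Ratios used effective library sizes from edgeR's TMM scaling and a pseudocount of 0.5 CPM, which understates the ratio of low genes. The log2 ratio of replicate 1 to replicate 2 was -0.48 for Pou5f1, 0.41 for Sox2, 1.12 for Klf4 and 2.95 for Myc. For Myc this is 7.72-fold, with a 95% interval of the log2 ratio of 2.68 to 3.61 from counting error without the pseudocount. A ratio of this kind sets 1 library against 1, and has no replicate check. Of the 13824 genes, 1259 (9.11%) were at least 2-fold apart in either direction and 688 (4.98%) were so with the higher level in replicate 1, as Klf4 and Myc were. The other 571 (4.13%) had the higher level in replicate 2. Genes at least as far apart as Pou5f1 made up 32.4% of all genes, and for Sox2 the share was 38.7%. It was 6.96% for Klf4 and 0.130% (18 genes) for Myc.

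**Figure D2:**
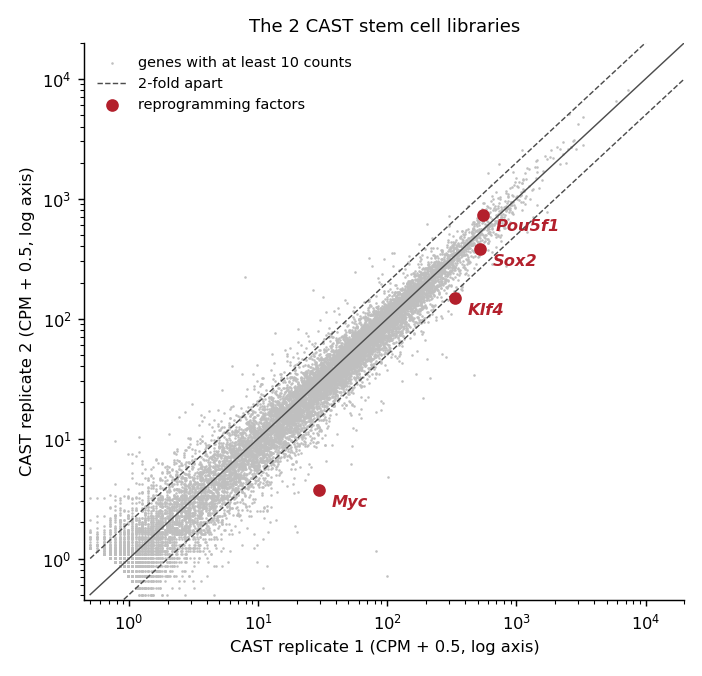
Levels in CPM (plus 0.5, log axes) of CAST replicate 1 against replicate 2 for the 13824 genes of 10 or more counts summed, with the 4 reprogramming factors in red, a solid line of equal level and dashed lines 2-fold from it. Pou5f1 and Sox2 lie between the dashed lines, Klf4 lies just below the lower one and Myc far below it.

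Genes most like each factor were taken as the 2 nearest in log2(CPM + 0.5) of the 2 libraries, which weighs level and ratio together and rests on 2 libraries only. For Pou5f1 they were Ube2s (distance 0.0727) and Rpl37 (0.0830), and for Sox2 Ankrd11 (0.0113) and Hspg2 (0.0709). For Klf4 they were Resf1 (0.0945) and Plxna1 (0.169). Myc lay farther from its nearest genes, which were Ccnd2 at 0.465 (22.5 and 4.01 CPM) and Anxa1 at 0.535.

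Pou5f1 and Sox2 each stood above every other gene of their family that was measured. POU factors share a paired DNA-binding domain, and most act in the nervous system, endocrine organs or lymphocytes. Of the summed CPM per kilobase of the 15 POU genes, Pou5f1 held 93.3% in replicate 1 and 94.7% in replicate 2. The next were Pou2f1, a widely expressed octamer-binding factor, at 8.27 CPM per kilobase (mean of 2 libraries), Pou2f3 at 5.50 and Pou3f1 at 5.001, and in each library 4 POU genes had 3 counts or fewer. Of the 10 POU genes compared, 3 were higher in replicate 1 and 7 in replicate 2, and the median log2 ratio was -0.40. Over all genes 50.4% were higher in replicate 1, and the median was 0.0047. Pou3f3 (40 and 13 counts) and Pou4f3 (5 and 21 counts) were the 2 of the 10 at least 2-fold apart, against 9.11% of all genes. They lay in opposite directions and at low counts, and the 2 became 0 with a pseudocount of 2 CPM or a mean of at least 5 CPM.

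SOX factors bind DNA through an HMG box. Sox2 held 76.5% and 73.4% of the summed CPM per kilobase of the 18 SOX genes measured. By the mean of the libraries, Sox15 was at 24.03 CPM per kilobase, Sox12 at 19.8 and Sox13 at 8.26. The order below Sox2 differed between the libraries, with Sox12 (23.4) above Sox15 (22.2) in replicate 1 and Sox15 (25.8) above Sox12 (16.1) in replicate 2. Of 17 SOX genes compared, 7 were higher in replicate 1 and 10 in replicate 2, with a median log2 ratio of -0.16, where 50.4% of all genes were higher in replicate 1. Sox4 was the 1 SOX gene of the 17 at least 2-fold apart, at 28.6 and 12.6 CPM, against 9.11% of all genes. Sox9 and Sry were not analysed here.

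Klf4, in contrast, was 1 of several KLF genes at a high level. It held 13.7% and 11.7% of the summed CPM per kilobase of 17 KLF genes, at rank 2 in replicate 1 and rank 3 in replicate 2. Klf2 was the highest, with 643 and 283 CPM and a mean of 251 CPM per kilobase, and Klf5 had 352 and 163 CPM and a mean of 76.9 CPM per kilobase, close to the 79.2 of Klf4. These 3 genes had nearly the same log2 ratio between the libraries, 1.12 for Klf2, 1.12 for Klf4 and 1.05 for Klf5. As given with the sequences above, the longest exact run shared with Klf4 was 14 bases for Klf2 and 11 for Klf5. Exact runs in reference models do not show how the reads of these libraries were assigned among the 3 genes, which was not tested. All 16 KLF genes compared had the higher level in replicate 1, under TMM, library totals and the size factors of DESeq2 alike, where 50.4% of all genes were with TMM and 55.5% with library totals. Their median log2 ratio was 0.68, and 5 of the 16 were at least 2-fold higher, against 4.98% of all genes, namely Klf13 (124 and 52.4 CPM) and Klf7 (9.54 and 4.01 CPM) besides the 3 named. Klf10, a gene induced by TGF-beta, had 142 and 127 CPM, a log2 ratio of 0.10.

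Myc had 1 measured relative, Mycl, at 12.2 and 5.17 CPM, a log2 ratio of 1.11. Per kilobase Myc was above Mycl in replicate 1, where it held 78.1% of the sum of both genes. In replicate 2 it held 48.1%, and the 2 genes lay close (1.37 and 1.48 CPM per kilobase). These values rest on 44 and 71 counts, so the order in replicate 2 is not settled. Mycn was not analysed here.

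**Figure D3:**
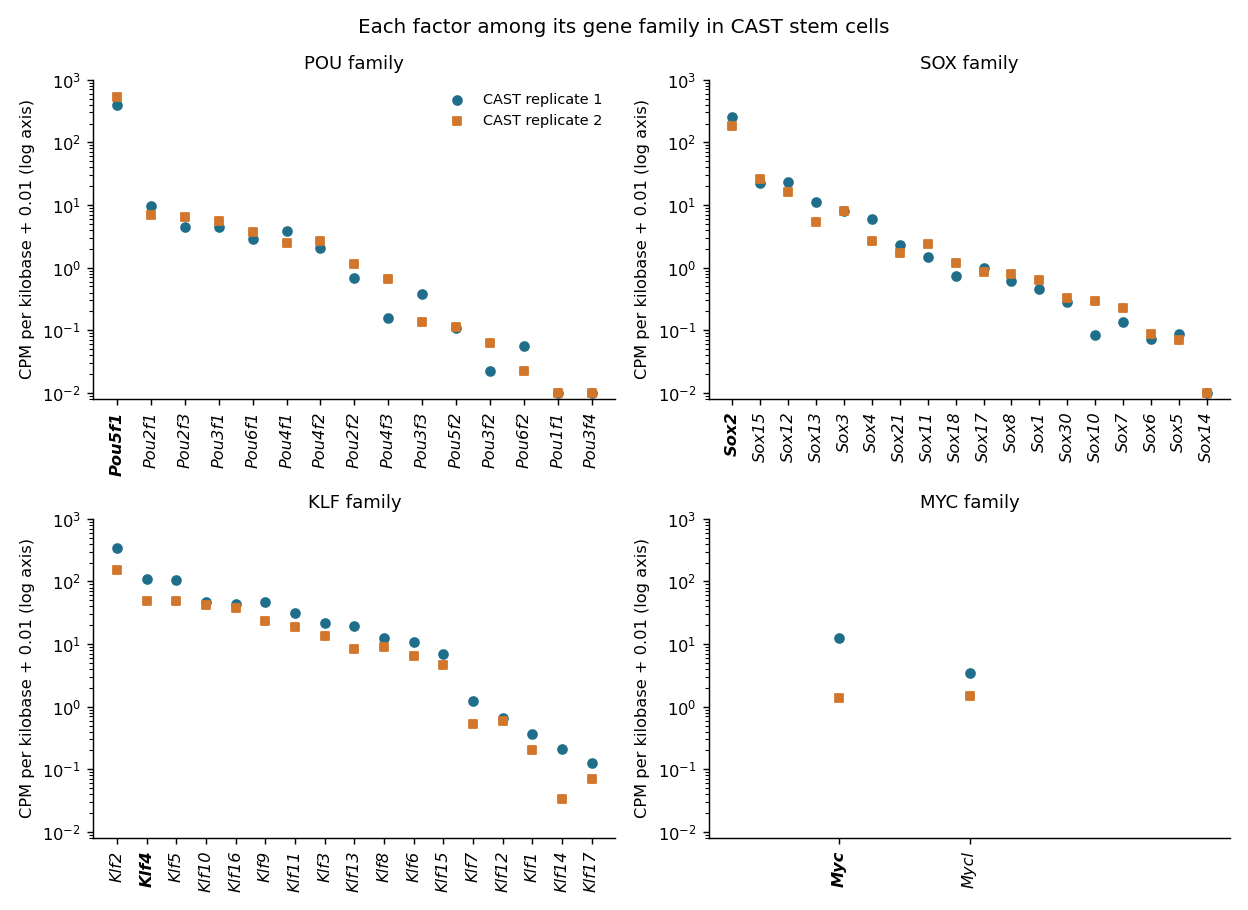
Levels in CPM per kilobase (plus 0.01, log axis) of every measured POU, SOX, KLF and MYC gene in the 2 CAST libraries, ordered by their mean, with the reprogramming factor in bold. Pou5f1 and Sox2 stand above the rest of their families, and Klf4 lies below Klf2 and beside Klf5. Myc lies above Mycl in replicate 1 and close to it in replicate 2.

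Genes around MYC lay on either side. Among 9 MAX network genes measured, which encode partners and antagonists of MYC, 4 were higher in replicate 1 and 5 in replicate 2, and this became 5 and 4 with library totals, near the even split of all genes (50.4% higher in replicate 1). Mnt, a repressor that competes with MYC for MAX, was the 1 gene of the 9 at least 2-fold apart, a share near the 9.11% of all genes, at 118 and 46.2 CPM. Mga had 399 and 433 CPM, Mxi1 63.7 and 61.9, and Mlx 27.5 and 32.9, and Max itself was not analysed here. Of 9 genes that MYC is known to drive, 8 were higher in replicate 2, the library with the lower Myc, as were 6858 of all 13824 genes, and the median log2 ratio was -0.27. With library totals 7 were, and the median was -0.21. The nucleolar genes Ncl (2643 and 2685 CPM) and Npm1 (1902 and 2201 CPM) and the spermidine synthase gene Srm (353 and 424 CPM) were each less than 2-fold apart. Ldha, the lactate dehydrogenase gene, was the 1 gene of the 9 past 2-fold, at 1108 and 2542 CPM, where 9.11% of all genes were past it. Odc1, Nop56 and Eif4e, also on this list, were not analysed here.

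Of 5 listed target genes of OCT4 and SOX2, 3 were compared, and 0 of them were at least 2-fold apart, where 9.11% of all genes were. Utf1 had 832 and 804 CPM, Fgf4 246 and 204, and Fbxo15 418 and 369, with log2 ratios of -0.0089, 0.21 and 0.12, and with library totals all 3 were higher in replicate 1. Nanog and Lefty1 were not analysed here. Of 23 partner genes of the pluripotency network, 18 were higher in replicate 1 (19 with library totals), with a median log2 ratio of 0.37, where 50.4% of all genes were higher there (55.5% with library totals). At least 2-fold higher in replicate 1 were 3 of the 23, against 4.98% of all genes. Besides Klf2 and Klf5 this was Tbx3, a T-box factor that supports the naive state, at 484 and 130 CPM. Zfp42 (573 and 493 CPM) and Dppa3 (185 and 137 CPM), both marks of naive cells, were less than 2-fold apart. Markers of the labelled cell type were thus expressed in both libraries. Gbx2, also on this list, was low at 2.63 and 2.48 CPM, and fibroblast markers were expressed as well (below).

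The LIF pathway, known from mouse stem cells in general to act upstream of Klf4 and Myc, held genes on either side. Lifr, a subunit of the LIF receptor, had 76.0 and 34.1 CPM, and Socs3, a feedback inhibitor induced by STAT3, had 54.2 and 116 CPM. The other subunit Il6st (125 and 76.6 CPM), Stat3 (100.7 and 75.3 CPM) and Jak1 (132 and 146 CPM) were less than 2-fold apart. Of these 5 genes 3 were higher in replicate 1, where 50.4% of all genes were (55.5% with library totals), and the median log2 ratio was 0.36. Lifr and Socs3 were the 2 of the 5 at least 2-fold apart, against 9.11% of all genes.

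Retroviral vectors of this kind are known to be silenced in pluripotent cells by repressor complexes and DNA methylation, and genes of this machinery were expressed in both libraries. Trim28, the corepressor recruited to proviral DNA, had 2886 and 2579 CPM, Zfp809, the zinc finger protein that brings it there, 37.8 and 31.4, and Setdb1, the H3K9 methyltransferase, 142 and 125. Of the 11 genes measured 9 were higher in replicate 1, where 50.4% of all genes were (55.5% with library totals), and the median log2 ratio was 0.10. Dnmt1 (778 and 701 CPM) and Uhrf1 (616 and 527 CPM), which maintain DNA methylation, lay near this median. Dnmt3l, a cofactor of de novo methylation, was the 1 gene of the 11 at least 2-fold apart, at 72.0 and 322 CPM, a share near the 9.11% of all genes. These are transcript levels, and whether the vectors were silenced was not tested.

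Fibroblast feeder cells express Klf4 and Myc, and most listed fibroblast markers were also higher in replicate 1. Of 15 such markers compared, 13 were higher there (14 with library totals), and the median log2 ratio was 0.92, where 50.4% of all genes were higher there (55.5% with library totals). At least 2-fold higher in replicate 1 were 7 of the 15, against 4.98% of all genes. Summed over the list, they had 6933 CPM in replicate 1 and 4331 in replicate 2. The 7 were the collagen genes Col1a1 (1726 and 777 CPM), Col1a2 (825 and 273), Col3a1 (265 and 100.9) and Col5a1 (312 and 109), the matrix gene Fbn1 (80.9 and 16.3), Lox, which crosslinks collagen (196 and 65.8), and the surface marker Thy1 (29.7 and 11.3). Sparc (756 and 706 CPM), Vim (152 and 142) and Fn1 (2401 and 2002) were closer, and Postn had 38.1 and 19.2 CPM. The 2 markers higher in replicate 2 were Pdgfrb (6.15 and 6.63 CPM) and Dcn (3.25 and 3.21 CPM, higher in replicate 2 under TMM). None of the 16 markers was at 0, and Twist2, with 3 and 2 counts, was the 1 not compared. In bulk RNA fewer cells of a type and less RNA per cell cannot be told apart. The part of feeder RNA in the ratios of Klf4, the other KLF genes and Myc was not tested. Of 9 germ layer genes 6 were higher in replicate 2, as were 6858 of all 13824 genes, and the median log2 ratio was -0.55. At least 2-fold higher in replicate 2 were 3 of the 9, against 4.13% of all genes, and this became 2 with library totals and 1 with a pseudocount of 2 CPM or a mean of at least 5 CPM. These were Gata6 (10 and 99 counts), Pax6 (13 and 41 counts) and T (113 and 217 counts). The mean filter left T (mean 11.8 CPM) and removed Gata6 (3.95) and Pax6 (1.94). With library totals T was the 1 under 2-fold, so none of the 3 stayed past 2-fold under every setting. Otx2 had 44.8 and 51.3 CPM, Eomes 12.7 and 18.0, and Nes 65.9 and 46.3. The part of differentiating cells in the lower Klf4 and Myc of replicate 2 was likewise not tested.

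**Figure D4:**
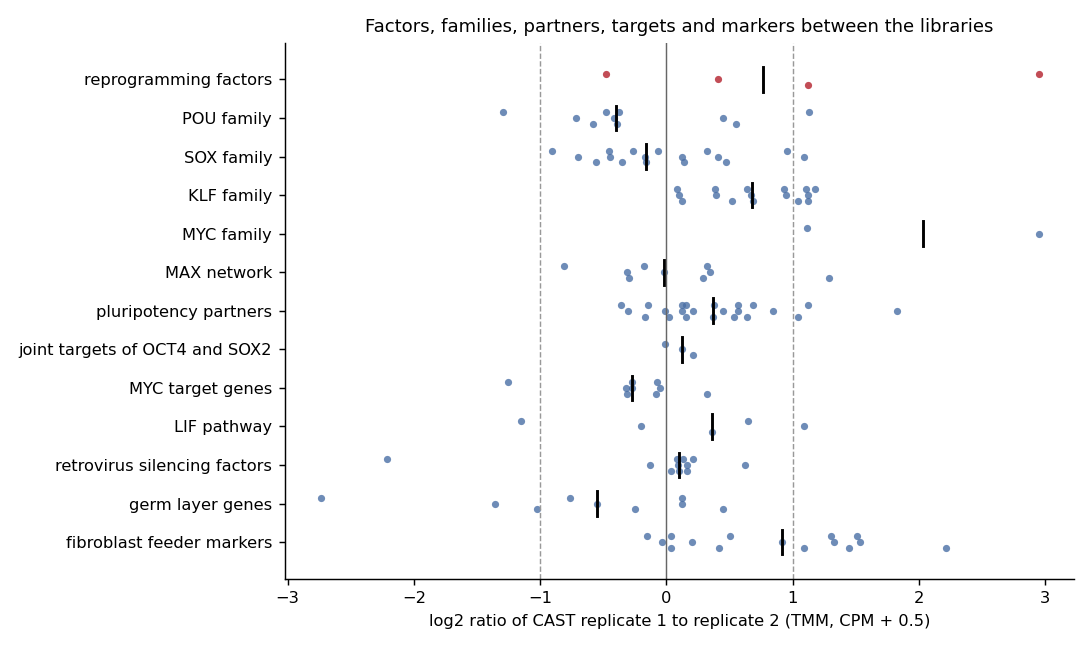
Log2 ratio of CAST replicate 1 to replicate 2 (TMM, CPM plus 0.5) for each gene with at least 10 counts in the 13 gene lists, with black bars at the medians and dashed lines 2-fold from equality. Myc lies at 2.95, right of every other gene plotted, all 16 KLF genes lie right of 0, and 13 of 15 fibroblast feeder markers lie right of 0.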

How the data were processed

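RNA-seq libraries of CAST homozygous stem cells were used, 2 in number. The authors deposited raw counts per gene without normalization. For these samples the submitters' processing notes name TopHat2 2.1.1, SAMtools and HTSeq with GRCm38 (mm10), whereas the paper's methods name STAR, the CAST/EiJ genome and removal of reads at more than 1 locus. Which of the 2 made the deposited table was not settled, and mapping to another strain's genome could lower counts at divergent genes. Of its 9 columns, 7 match no sample of the list used here and were not used.

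CPM used library totals, and ratios used TMM scaling (edgeR 4.0.16, R 4.3.3) after 0.5 CPM was added, over genes of 10 or more counts summed. With 1 library on each side of a ratio no significance test was run, so no p-value is given. The code for the ratios was run on simulated counts with counting error only. That run checks the code and says nothing of the spread between libraries. GENCODE M21 gave symbols to 26807 of 26808 identifiers, and lengths. At this depth 3 counts equal 0.207 and 0.219 CPM. Size factors came from DESeq2 1.42.0. Intervals and tables were made in Python 3.11.15 (scipy 1.17.1, pandas 2.3.3, numpy 2.4.6), figures in matplotlib 3.10.9.

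The members and the 12 further lists were chosen with earlier results of these data known, so no list's direction is independent evidence. Genes named are the members, up to 4 of each list by CPM per kilobase, and genes at least 2-fold apart with a mean of at least 5 CPM. Others, such as Pou3f3, Pou4f3, Gbx2, Zfp809, Setdb1, Gata6, Pax6, Postn, Vim, Dcn, Pdgfrb and Twist2, were named after their values were seen. Sequences for miRNAs, promoters and proteins were not used here.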

Additional observations from a re-analysis of the deposited data

How the results depend on the processing

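No paired analysis was possible because only 1 group was analysed, so that no groups share replicate numbers. With 1 library left out, levels ranged from 547 to 731 CPM for Pou5f1, 378 to 522 for Sox2, 147 to 333 for Klf4 and 3.21 to 29.2 for Myc. Without replicate 1 the means of Klf4 (239.9) and Myc (16.2) thus moved by over 1.5 times, as did that of Myc without replicate 2. Ratios and counts of genes 2-fold apart could not be computed from 1 library. With the exon union as length, Pou5f1 had 284 CPM per kilobase in place of 469.

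Signs of the 4 log2 ratios did not change under library totals, the size factors of DESeq2 or pseudocounts of 0.1 and 2 CPM. With library totals Pou5f1 had -0.42 and Sox2 0.46, and with a pseudocount of 2 CPM Myc had 2.54. Genes at least 2-fold apart numbered 541 with a pseudocount of 2 CPM and 542 where the mean had to reach 5 CPM, and 1811 with a pseudocount of 0.1 CPM, against 1259. The pseudocount of 2 CPM and the mean of at least 5 CPM each left 0 POU genes and 1 germ layer gene at least 2-fold apart. A pseudocount of 2 CPM left 1 MYC family gene, Myc. SOX genes past 2-fold were 2 with library totals and with a pseudocount of 0.1 CPM. Myc in replicate 2 rests on 44 counts, and with 2 libraries the SD itself is imprecise.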
